A study of Mus musculus with 6 samples.

Results

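The genes described here are 9 genes of the negative feedback and transcriptional output of ERK signalling: the dual-specificity phosphatases Dusp4, Dusp5 and Dusp6, the Sprouty genes Spry1 and Spry2, the Sprouty-related genes Spred1 and Spred2, and the ETS factors Etv1 and Etv5. They were chosen by gene symbol with their values in both genotypes already known, and all 9 were found among the 15703 genes of the expression table. RNA had been sequenced from whole neocortex on postnatal day 0, in 3 conditional knockout mice (cKO; genotype Tcf4 f/f; Emx1Cre/+) and 3 wild-type mice (WT), all of the C57BL/6 strain. The Cre recombinase is driven from Emx1, a gene of cortical progenitors, so floxed Tcf4 is lost in excitatory neurons and glia of that lineage, while interneurons, microglia and vessels in the tissue keep it. The labels name neither a Cre-negative floxed control nor a Cre-only control. The study was designed to ask which genes change expression once the transcription factor Tcf4 is lost. Values are FPKM, fragments per kilobase of exon and per 1e6 fragments, and means are given ± SD (n = 3 libraries per genotype).

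ERK is the last kinase of a cascade in which growth factors bind receptor tyrosine kinases, the receptors load the small GTPase Ras with GTP, and Ras activates Raf, MEK and ERK in turn. Active ERK switches on transcription of its own brakes. Dual-specificity phosphatases remove the activating phosphates from ERK, Sprouty and Spred proteins act upstream at the level of Ras and Raf, and ETV factors of the PEA3 group carry the transcriptional response. In the embryonic mouse brain these genes are known as readouts of fibroblast growth factor signalling, and the pathway is known for its part in cortical patterning and in the production of glia.

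The libraries held 25.3 to 28.8 M (1e6 reads) in listed genes, as recovered from the FPKM values and therefore approximate. Tcf4 itself was at 56.5, 60.6 and 55.3 FPKM in cKO and 71.2, 75.6 and 75.3 FPKM in WT, lower in 3 of 3 cKO libraries (log2 difference −0.36, SE 0.0617, limma adjusted p = 0.00411); the value covers all exons and all cells of the tissue. All 9 markers of cortical projection neurons were measured, and 3 of them were lower in cKO. Their summed level was 722 to 762 FPKM in cKO and 687 to 731 FPKM in WT. The largest part of it was Neurod6, which did not pass (351 ± 22.4 FPKM in cKO and 296 ± 21.8 FPKM in WT). The median log2 difference of the 9 markers was −0.17. Markers of other cells differed between the genotypes. Of 9 measured astrocyte markers 8 were lower (summed level 177 to 205 FPKM in cKO and 212 to 256 FPKM in WT). The largest part of that sum was Sparcl1, which did not pass (122 ± 5.79 FPKM in cKO and 115 ± 6.62 FPKM in WT). Of 11 radial glia markers 4 were lower (410 to 523 FPKM in cKO and 633 to 662 FPKM in WT). The largest part of that sum was Fabp7 (312 ± 47.5 FPKM in cKO and 454 ± 4.25 FPKM in WT). Pax6 and Hes1 did not pass, but in both every cKO library was above every WT library. The median log2 difference was −0.56 for astrocyte and −0.14 for radial glia markers. Of 9 microglia markers 5 were lower (14.9 to 20.97 FPKM in cKO and 24.9 to 28.5 FPKM in WT). Of 8 markers of dividing cells 6 were higher (43.6 to 56.1 FPKM in cKO and 35.8 to 41.7 FPKM in WT), and of 7 intermediate progenitor markers 4 were higher and 1 lower. The lowest of these markers, Aif1 of microglia, was at 0.515 ± 0.175 FPKM in cKO and 0.6997 ± 0.273 FPKM in WT, so none was at 0. Of 8 oligodendrocyte lineage markers 2 were lower and 1 higher, of 9 interneuron markers 3 were lower, and of 8 endothelial and mural markers none passed (1 with an unadjusted p under 0.05). The part of such differences in the values below was not tested, and in whole tissue fewer cells of a type and less RNA per cell cannot be told apart.

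In the cKO neocortex, Dusp5 was 13.6-fold lower than in WT and Dusp6, Spry2 and Etv5 were about as far below WT as each other, at 0.441, 0.492 and 0.510 of the WT mean. Dusp4, Spred2 and Spry1 were lower by less, at 0.729, 0.813 and 0.829 of the WT mean. Spred1 lay close to WT, and Etv1 was higher. All cKO libraries lay below all WT libraries in 7 of the 9 genes, an arrangement found in 18.7% of all genes, and above them in 1 gene, Etv1, an arrangement found in 18.5% of all genes. In the limma fit across all genes, 6 of the 9 had an adjusted p under 0.05 with a lower level in cKO, against 8.59% of all genes, and 1 had one with a higher level, against 7.22% of all genes. With 1 library left out, 5 were called lower (6 without WT 3) and none higher (1 without WT 2), the libraries being numbered by replicate. Because the 9 genes were picked from these same values, the counts describe them and are no evidence, and no p-value is given for any of them. The median log2 difference, cKO minus WT on the log2(FPKM + 1) scale, was −0.44 over the 9 genes and 0.0017 over all genes.

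**Figure D1:**
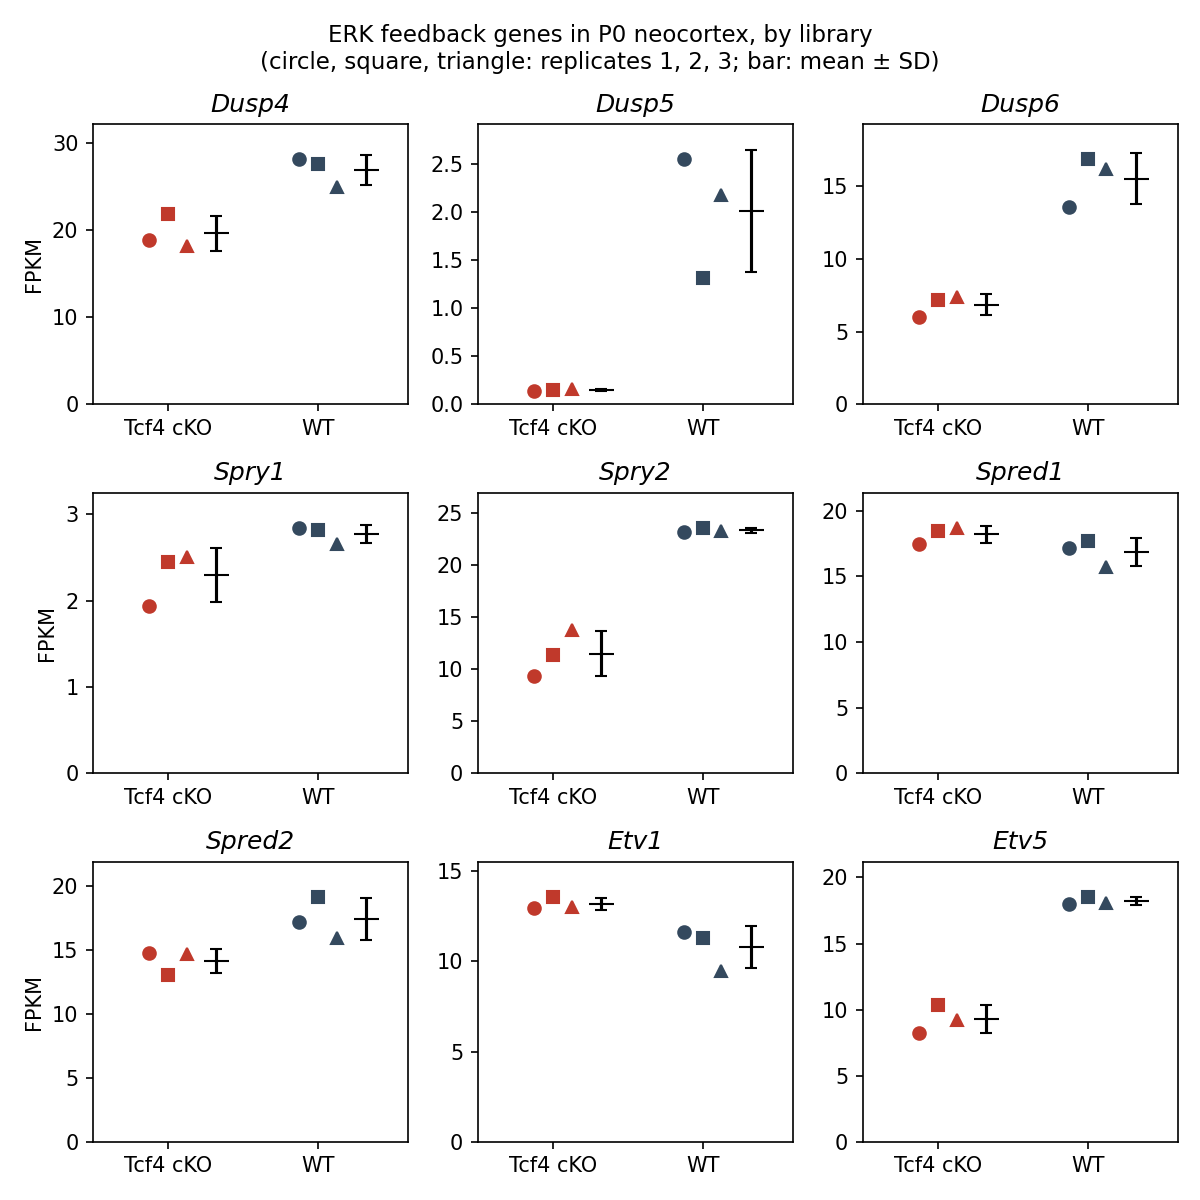
Expression of the 9 genes by library, in FPKM on linear axes that start at 0, with Tcf4 cKO (red) left of WT (dark blue). Symbols are the 3 libraries of each genotype and bars are the mean ± SD; Dusp5, Dusp6, Spry2 and Etv5 show the widest gaps, and in Spred1 the libraries of the genotypes overlap.

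Dusp5 encodes a phosphatase of the nucleus that is specific for ERK and is induced by it. Its level was 0.137, 0.150 and 0.157 FPKM in cKO and 2.55, 1.31 and 2.17 FPKM in WT. Every cKO library was far below every WT library, and the WT libraries differed among themselves by more than those of any other gene of the group (coefficient of variation 31.6%). The recovered reads behind these values were 8, 9 and 9 in cKO and 164, 76 and 126 in WT, so the cKO level rests on few reads. The means were 0.148 ± 0.0101 FPKM in cKO and 2.01 ± 0.635 FPKM in WT. The log2 difference was −1.37 (SE 0.135) on the log2(FPKM + 1) scale, which understates the change of a low gene, and −3.71 without the added 1. Dusp5 (ENSMUSG00000034765) lies on chromosome 19, 53529109 to 53542431, plus strand, mm10. An annotated gene on the opposite strand overlaps 22.1% of its exon bases. How reads in the shared bases were counted is not known, since the strand setting is not given.

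Dusp6 encodes the cytoplasmic ERK phosphatase, a standard marker of fibroblast growth factor signalling in the embryo. Its level was 6.02, 7.18 and 7.35 FPKM in cKO and 13.5, 16.8 and 16.2 FPKM in WT. The groups were well apart, and within each of them the first library was the lowest. The means were 6.85 ± 0.725 FPKM in cKO and 15.5 ± 1.75 FPKM in WT, a 2.27-fold lower level (log2 difference −1.07, SE 0.0976). The gene (ENSMUSG00000019960, chromosome 10, 99263231 to 99267489, plus strand) shares no exon bases with another annotated gene.

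Dusp4, an inducible phosphatase of the nucleus that also acts on other MAP kinases, had the highest level of the 9 genes in both genotypes. It was at 18.9, 21.9 and 18.2 FPKM in cKO and 28.2, 27.7 and 24.9 FPKM in WT, so the groups did not overlap. The means of 19.6 ± 1.96 FPKM in cKO and 26.9 ± 1.74 FPKM in WT gave a 1.37-fold lower level (log2 difference −0.44, SE 0.0819). Dusp4 (ENSMUSG00000031530) lies on chromosome 8, 34807297 to 34819894, plus strand. Summed over the 3 phosphatases, the level was 26.6 ± 2.24 FPKM in cKO and 44.5 ± 1.29 FPKM in WT.

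The DNA before the start sites of Dusp5 and Dusp6 is shown because these were the lowest of the phosphatases relative to WT and because Tcf4 binds E-boxes, short sites of the form CANNTG. Sequences are from RefSeq (GRCm38.p6), run 5′ to 3′ on the strand of the gene and stop at the first annotated exon base. Capitals mark each CANNTG and each CArG box, the site of the serum response factor SRF.
Dusp5, chr19:53528895-53529108: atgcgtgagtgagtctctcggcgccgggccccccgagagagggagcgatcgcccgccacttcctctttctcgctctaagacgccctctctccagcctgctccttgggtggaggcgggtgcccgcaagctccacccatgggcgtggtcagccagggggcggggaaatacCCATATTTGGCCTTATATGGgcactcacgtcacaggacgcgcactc
Dusp6, chr10:99262981-99263230: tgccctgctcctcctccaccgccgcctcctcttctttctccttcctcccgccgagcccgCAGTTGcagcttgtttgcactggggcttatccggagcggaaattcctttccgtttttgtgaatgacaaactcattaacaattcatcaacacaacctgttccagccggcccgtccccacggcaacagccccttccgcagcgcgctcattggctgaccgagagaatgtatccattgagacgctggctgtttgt
Dusp5 held no CANNTG in the 250 bases before its RefSeq start and a pair of adjoining CArG boxes, which began at positions −82 and −72 (counted from the RefSeq start, with −1 for the base before it). SRF is the factor through which ERK induces many immediate early genes. A CArG box was present in 1.47% of 32841 windows of the same length, and of the 10 windows of the 8 genes with an entry (all but Dusp4) Dusp5 alone held one. This motif was chosen after the sequence was read. Dusp6 held 1 CANNTG, at position −191, and no CArG box.

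Spry2 encodes an inhibitor that is phosphorylated after receptor activation and dampens signalling between the receptor and ERK. Its level was 9.36, 11.3 and 13.7 FPKM in cKO and 23.1, 23.5 and 23.2 FPKM in WT. The WT libraries were almost equal (coefficient of variation 0.898%), whereas those of cKO were spread out (19.1%), and all of them lay well below WT. The means were 11.5 ± 2.18 FPKM in cKO and 23.3 ± 0.209 FPKM in WT, a 2.03-fold lower level (log2 difference −0.98, SE 0.109). Spry2 (ENSMUSG00000022114) lies on chromosome 14, 105891947 to 105896819, minus strand.

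Spry1, its close relative, was at a lower level and nearer to WT. It measured 1.93, 2.45 and 2.51 FPKM in cKO and 2.84, 2.81 and 2.66 FPKM in WT. The highest cKO library came close to the lowest WT library without reaching it. The means were 2.30 ± 0.316 FPKM in cKO and 2.77 ± 0.0991 FPKM in WT (log2 difference −0.20, SE 0.0939). A gene on the opposite strand overlaps 24.4% of its exon bases (ENSMUSG00000037211, chromosome 3, 37639947 to 37644598, plus strand).

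Spred1 and Spred2 encode membrane-associated inhibitors that bring neurofibromin, the Ras-inactivating product of Nf1, to the plasma membrane. Spred1 was at 17.5, 18.4 and 18.7 FPKM in cKO and 17.1, 17.7 and 15.7 FPKM in WT. It was the only gene of the 9 in which the libraries of the genotypes overlapped (means 18.2 ± 0.652 FPKM in cKO and 16.9 ± 1.035 FPKM in WT; log2 difference 0.11, SE 0.0680). Spred2 was at 14.7, 13.1 and 14.7 FPKM in cKO and 17.2, 19.2 and 15.9 FPKM in WT. Its groups were apart by a small margin (means 14.2 ± 0.945 FPKM in cKO and 17.4 ± 1.64 FPKM in WT; log2 difference −0.28, SE 0.0818). Spred1 (ENSMUSG00000027351) lies on chromosome 2, 117121374 to 117182279, and Spred2 (ENSMUSG00000045671) on chromosome 11, 19924375 to 20024026, both on the plus strand. Summed over the 4 Sprouty and Spred genes, the level was 46.1 ± 3.13 FPKM in cKO and 60.3 ± 2.87 FPKM in WT, and most of that gap came from Spry2.

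The sequences before Spry2 and Spred1 are set side by side because these inhibitors had the widest and the narrowest gap between genotypes of the 4 on the log2 scale. Capitals mark CANNTG.
Spry2, chr14:105896820-105897069: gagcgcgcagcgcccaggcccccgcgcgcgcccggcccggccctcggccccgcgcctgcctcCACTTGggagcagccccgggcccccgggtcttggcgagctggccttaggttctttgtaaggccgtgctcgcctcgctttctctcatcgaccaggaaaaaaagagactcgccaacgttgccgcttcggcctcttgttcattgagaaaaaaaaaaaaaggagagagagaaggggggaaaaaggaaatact
Spred1, chr2:117120821-117121070: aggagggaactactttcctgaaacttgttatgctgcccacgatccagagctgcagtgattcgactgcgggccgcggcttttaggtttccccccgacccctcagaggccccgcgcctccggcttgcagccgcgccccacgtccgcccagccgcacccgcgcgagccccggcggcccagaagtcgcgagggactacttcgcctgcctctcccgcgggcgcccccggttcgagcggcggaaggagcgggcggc
Spry2 held 1 CANNTG, at position −188, and Spred1 held none.

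Etv5 encodes a PEA3-group factor whose transcription follows fibroblast growth factor signalling and which has been linked to gliogenesis in the mouse cortex. Its level was 8.27, 10.3 and 9.23 FPKM in cKO and 18.0, 18.5 and 18.1 FPKM in WT. The groups were far apart and the WT libraries nearly equal. The means were 9.28 ± 1.040 FPKM in cKO and 18.2 ± 0.308 FPKM in WT, a 1.96-fold lower level (log2 difference −0.91, SE 0.0802). Etv5 (ENSMUSG00000013089) lies on chromosome 16, 22381309 to 22439719, minus strand.

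Etv1, of the same group, is also known as a marker of deep-layer projection neurons, and it differed from WT in the other direction. Its level was 12.95, 13.58 and 13.03 FPKM in cKO and 11.6, 11.3 and 9.49 FPKM in WT. All cKO libraries lay above WT, by a margin that was widest against the third WT library. The means were 13.2 ± 0.345 FPKM in cKO and 10.8 ± 1.16 FPKM in WT, a 1.219-fold higher level (log2 difference 0.27, SE 0.0811). Etv1 (ENSMUSG00000004151) lies on chromosome 12, 38779380 to 38870484, plus strand. Of 6 other markers of layer 5 projection neurons, 1 was lower and none higher, with a summed level of 215 to 219.9 FPKM in cKO and 205 to 246 FPKM in WT. Summed over both factors, the level was 22.5 ± 1.37 FPKM in cKO and 29.0 ± 1.252 FPKM in WT.

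The stretch before the first annotated exon of Etv5 is shown with its pair of E-boxes in capitals.
Etv5, chr16:22439720-22439820: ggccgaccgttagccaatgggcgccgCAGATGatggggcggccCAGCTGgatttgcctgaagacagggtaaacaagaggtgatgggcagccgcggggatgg
The sites began at positions −224 and −207 from the RefSeq start, and the second is CAGCTG, a form present in 13% of all windows. The window of a second RefSeq start of Etv5 held no CANNTG. Spry1 also held 2, and of the 2 windows of Etv1, which was higher in cKO, one held 3 and the other none. Across the windows of the group, 5 of 10 held at least 1 CANNTG, against 66.2% of all 32841 windows (both strands searched). The ETS motif CCGGAAG and the AP-1 motif TGANTCA were in 0 of 10, against 6.91% and 6.75% of all windows, and the cyclic AMP response half-site TGACG was in 2 of 10, against 17.8%. These matches describe the letters in the windows and show no binding.

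FPKM is per kilobase of exon, so a different annotation could change the order of the 9 genes by level. That order differed between the genotypes. In cKO it was Dusp4, Spred1, Spred2, Etv1, Spry2, Etv5, Dusp6, Spry1 and Dusp5. In WT it was Dusp4, Spry2, Etv5, Spred2, Spred1, Dusp6, Etv1, Spry1 and Dusp5. The library ranges of neighbours overlapped in cKO between Dusp4 and Spred1, between Spred2 and Etv1, between Etv1 and Spry2 and between Spry2 and Etv5. In WT they overlapped between Etv5 and Spred2, between Spred2 and Spred1 and between Spred1 and Dusp6. Dusp5 had the lowest level in both genotypes, at the 17.7th percentile of all listed genes by mean FPKM, and Dusp4 stood at the 85.7th. Within the cKO group, the first library had the lowest value in 7 of the 9 genes, the exceptions being Dusp4 and Spred2.

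Relatives of these genes that were not in the group of 9 were measured in the same libraries and tested. They and the pathway lists below were also chosen with earlier results of these data known. Their p-values are therefore no independent evidence. Spred3, the third Spred gene, fell to 4.70, 4.65 and 3.97 FPKM in cKO, against 8.58, 8.67 and 8.94 FPKM in WT (1.97-fold lower, log2 difference −0.84, SE 0.0781, limma adjusted p = 0.000127). Spry4, a Sprouty gene that is also induced by fibroblast growth factor, fell to 1.69, 1.44 and 1.84 FPKM in cKO, against 3.19, 3.82 and 2.97 FPKM in WT (2.01-fold lower, limma adjusted p = 0.00171). Etv4, the remaining PEA3-group factor, fell to 3.54, 3.12 and 3.11 FPKM in cKO, against 4.89, 4.57 and 4.81 FPKM in WT (1.46-fold lower, limma adjusted p = 0.00585). For these 3 genes every cKO library was below every WT library, and each still passed with any 1 library left out. Spry3 went the other way, at 1.70 ± 0.1198 FPKM in cKO and 1.152 ± 0.216 FPKM in WT (limma adjusted p = 0.0442), but it no longer passed when any 1 of the 6 libraries except WT 2 was left out (adjusted p up to 0.121).

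Of 6 other measured MAP kinase phosphatases, 2 fell, none rose and 4 did not pass. Dusp2, a nuclear inducible phosphatase, was at 1.08 ± 0.144 FPKM in cKO and 2.002 ± 0.428 FPKM in WT (limma adjusted p = 0.0143). Dusp10, which acts on the stress kinases p38 and JNK, was at 0.659 ± 0.138 FPKM in cKO and 1.19 ± 0.201 FPKM in WT (limma adjusted p = 0.0179). The call of Dusp2 was lost without cKO 1, cKO 2 or WT 1 (adjusted p up to 0.0605), and that of Dusp10 without cKO 1, cKO 3 or WT 1 (adjusted p up to 0.0769). Dusp1, the immediate early member of the family, did not pass, at 7.73 ± 0.232 FPKM in cKO and 6.20 ± 0.862 FPKM in WT. Neither did Dusp8, at 37.8 ± 1.13 FPKM in cKO and 33.7 ± 3.48 FPKM in WT.

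**Figure D2:**
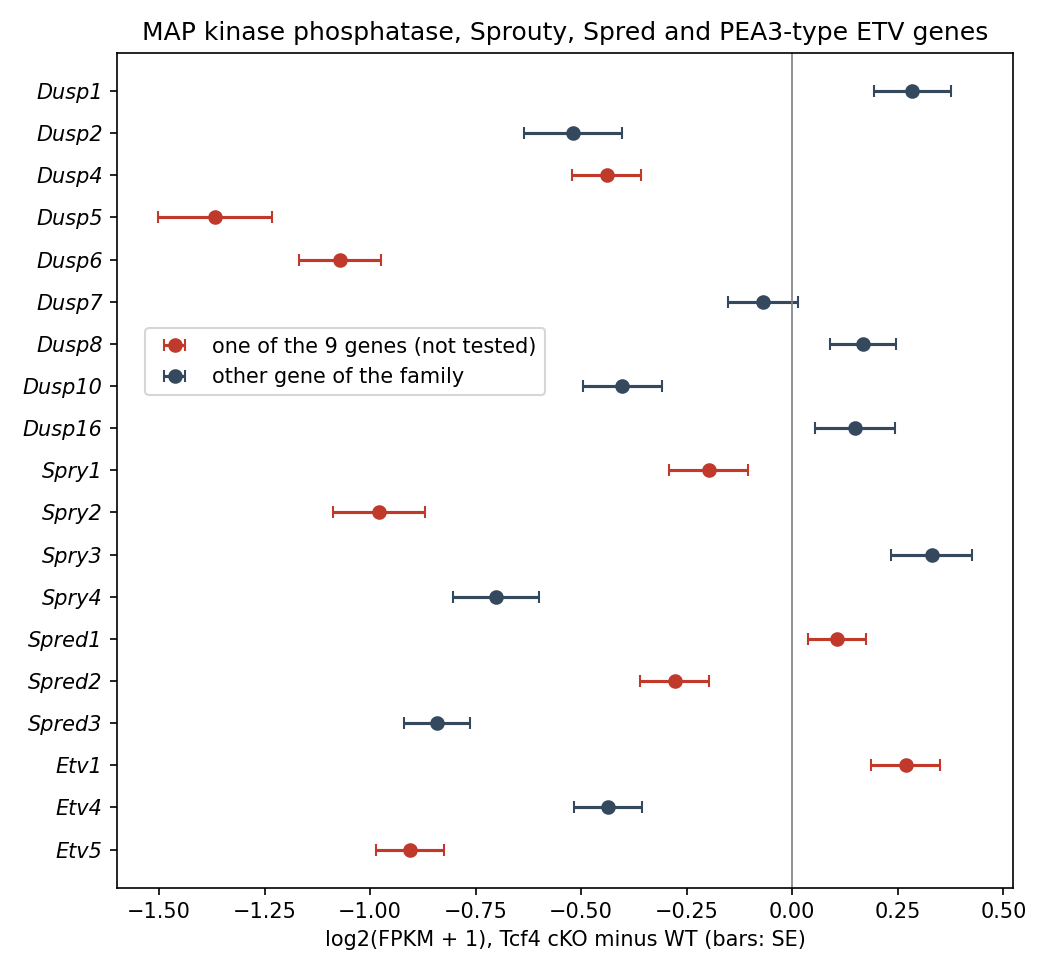
Log2 difference, Tcf4 cKO minus WT on the log2(FPKM + 1) scale, for the 9 genes (red) and their measured relatives (dark blue); bars are the SE of the limma fit and the grey line marks 0. Dusp5 (−1.37), Dusp6 (−1.07), Spry2 (−0.98), Etv5 (−0.91) and Spred3 (−0.84) lie farthest to the left, while Dusp1, Dusp8, Dusp16, Spry3, Spred1 and Etv1 lie to the right of 0.

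Among ligands of the pathway, 2 of 6 measured fibroblast growth factor genes fell and 1 rose. Fgf9 fell to 0.485, 0.579 and 0.566 FPKM in cKO, against 2.51, 1.71 and 2.01 FPKM in WT (3.82-fold lower, limma adjusted p = 0.000246). Fgf5 was at 0.119 ± 0.0767 FPKM in cKO and 0.386 ± 0.0882 FPKM in WT (limma adjusted p = 0.0180, up to 0.0728 without cKO 1, cKO 2 or WT 1). Fgf18 was at 2.73 ± 0.622 FPKM in cKO and 1.66 ± 0.379 FPKM in WT (limma adjusted p = 0.0415, up to 0.114 without cKO 2, cKO 3, WT 2 or WT 3). Of 16 other measured ligands of receptor tyrosine kinases, 3 fell (Tgfa, Ntf3, Igf1), 1 rose (Nrg1) and 12 did not pass. Tgfa, a ligand of the epidermal growth factor receptor, fell to 1.98 ± 0.236 FPKM in cKO, against 4.90 ± 0.430 FPKM in WT (limma adjusted p = 0.000150). The neurotrophin gene Ntf3 fell to 1.89 ± 0.243 FPKM in cKO, against 8.81 ± 0.825 FPKM in WT (4.66-fold lower). Igf1 was at 0.608 ± 0.127 FPKM in cKO and 0.946 ± 0.112 FPKM in WT, a call lost with a pseudocount of 0.1 and without any 1 library except cKO 3 (limma adjusted p of up to 0.168). The neuregulin gene Nrg1 was at 3.51 ± 0.341 FPKM in cKO and 2.32 ± 0.373 FPKM in WT (limma adjusted p = 0.0190, up to 0.0781 without cKO 1 or cKO 2).

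Of 17 measured receptor tyrosine kinases, 5 fell, none rose and 12 did not pass. Fgfr1, the most highly expressed of the fibroblast growth factor receptors here, fell to 7.71, 8.71 and 6.62 FPKM in cKO, against 12.7, 11.5 and 12.9 FPKM in WT (1.61-fold lower, limma adjusted p = 0.00197). Kit, the receptor of stem cell factor, fell to 5.46 ± 0.575 FPKM in cKO, against 9.75 ± 0.446 FPKM in WT (limma adjusted p = 0.000391). Pdgfra, a receptor of oligodendrocyte precursors, was at 6.11 ± 0.523 FPKM in cKO and 8.25 ± 0.528 FPKM in WT (limma adjusted p = 0.0115, up to 0.0566 without cKO 1 or WT 1). Alk (0.406 ± 0.0769 FPKM in cKO and 0.765 ± 0.119 FPKM in WT) and Fgfr4 (0.139 ± 0.0268 FPKM in cKO and 0.298 ± 0.0363 FPKM in WT) were also called lower. The call of Alk was lost without cKO 1 or cKO 3 and that of Fgfr4 without each of the 6 libraries (limma adjusted p of up to 0.0624 for Alk and 0.119 for Fgfr4). Fgfr2 (3.08 ± 0.181 FPKM in cKO and 2.83 ± 0.0951 FPKM in WT), Fgfr3 (4.31 ± 0.200 FPKM in cKO and 4.76 ± 0.575 FPKM in WT) and Egfr (3.28 ± 0.744 FPKM in cKO and 3.48 ± 0.324 FPKM in WT) did not pass.

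The kinases themselves gave no call. None of the 17 Ras, Raf, MEK and ERK cascade genes passed limma's test (0 calls; 4 had an unadjusted p under 0.05), and with voom on recovered reads 1 was higher and 1 lower. Mapk3, which encodes an ERK kinase, was at 39.2 ± 2.68 FPKM in cKO and 36.2 ± 3.28 FPKM in WT. Of 20 adaptors and Ras activators, 1 fell and 1 rose. Rasgrf2, a calcium-responsive Ras exchange factor, fell to 2.23, 1.86 and 2.39 FPKM in cKO, against 8.01, 7.44 and 6.75 FPKM in WT (3.42-fold lower, limma adjusted p = 1.31e-05). Sos2, a further exchange factor, was at 6.60 ± 0.436 FPKM in cKO and 5.25 ± 0.356 FPKM in WT (limma adjusted p = 0.0391, up to 0.135 without cKO 1, cKO 2, WT 1 or WT 3).

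Of 10 measured Ras GTPase-activating proteins and Ras brakes, Rasa3 fell, Rasal2 and Rasa1 rose and 7 did not pass. Rasa3 was at 6.60 ± 0.132 FPKM in cKO and 10.7 ± 1.82 FPKM in WT (limma adjusted p = 0.00365), and Rasal2 at 9.81 ± 0.0914 FPKM in cKO and 7.50 ± 0.363 FPKM in WT (limma adjusted p = 0.00732). Rasa1 was at 21.7 ± 0.413 FPKM in cKO and 17.6 ± 2.35 FPKM in WT, and its call was lost without any 1 library except WT 2 (limma adjusted p of up to 0.141). Among 8 other feedback inhibitors of receptor signalling, Spry4 and Spred3 fell as given above, as did Lrig1, which promotes receptor degradation (3.73 ± 0.106 FPKM in cKO and 5.004 ± 0.235 FPKM in WT, limma adjusted p = 0.0131, up to 0.0623 without cKO 2 or WT 1). Cblb, a receptor ubiquitin ligase, and Spry3 rose. Cblb was at 13.8 ± 0.323 FPKM in cKO and 11.8 ± 0.209 FPKM in WT, and its call was lost without any 1 library except WT 3 (limma adjusted p of up to 0.151). Il17rd, which encodes the feedback inhibitor Sef, did not pass, at 1.16 ± 0.0966 FPKM in cKO and 1.54 ± 0.310 FPKM in WT.

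Of 15 other measured ETS factors, Etv4 fell, Ets2 and Erf rose and 12 did not pass. Erf, a repressor that ERK drives out of the nucleus, was at 8.18 ± 0.237 FPKM in cKO and 6.41 ± 0.499 FPKM in WT (limma adjusted p = 0.0202, up to 0.0843 without cKO 1 or cKO 2). Ets2 was at 8.39 ± 0.427 FPKM in cKO and 6.82 ± 0.620 FPKM in WT, and its call was lost without each of the 6 libraries (limma adjusted p of up to 0.140). Of 20 other measured genes that ERK can induce, 8 fell, 1 rose and 11 did not pass. Ier5, an immediate early gene, fell to 8.07, 9.67 and 9.07 FPKM in cKO, against 24.8, 21.04 and 23.8 FPKM in WT (2.60-fold lower, limma adjusted p = 1.21e-05). Fosl2, of the AP-1 family, fell to 9.22 ± 2.19 FPKM in cKO, against 16.7 ± 1.65 FPKM in WT (limma adjusted p = 0.00365). Arc, a synaptic immediate early gene, fell to 0.152 ± 0.0215 FPKM in cKO, against 0.591 ± 0.154 FPKM in WT (limma adjusted p = 0.00347), and the zinc finger gene Egr3 to 0.588 ± 0.137 FPKM in cKO, against 1.63 ± 0.471 FPKM in WT (limma adjusted p = 0.00448). Jun rose to 16.7 ± 1.09 FPKM in cKO, against 11.4 ± 1.85 FPKM in WT (limma adjusted p = 0.00982). Ccnd1, a cyclin induced by ERK, did not pass, at 4.50 ± 0.495 FPKM in cKO and 4.94 ± 0.426 FPKM in WT.

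Over all 10 lists of pathway genes, 26 of 135 measured genes (19.3%) were lower in cKO, against 8.59% of all genes, and 10 (7.41%) were higher, against 7.22%. The median log2 difference of the lists lay between −0.12 and 0.08, against 0.0017 over all genes. Of these 36 genes, 16 still passed whichever library was left out. The lists were chosen with earlier results of these data known, so these shares describe them and are no evidence.

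**Figure D3:**
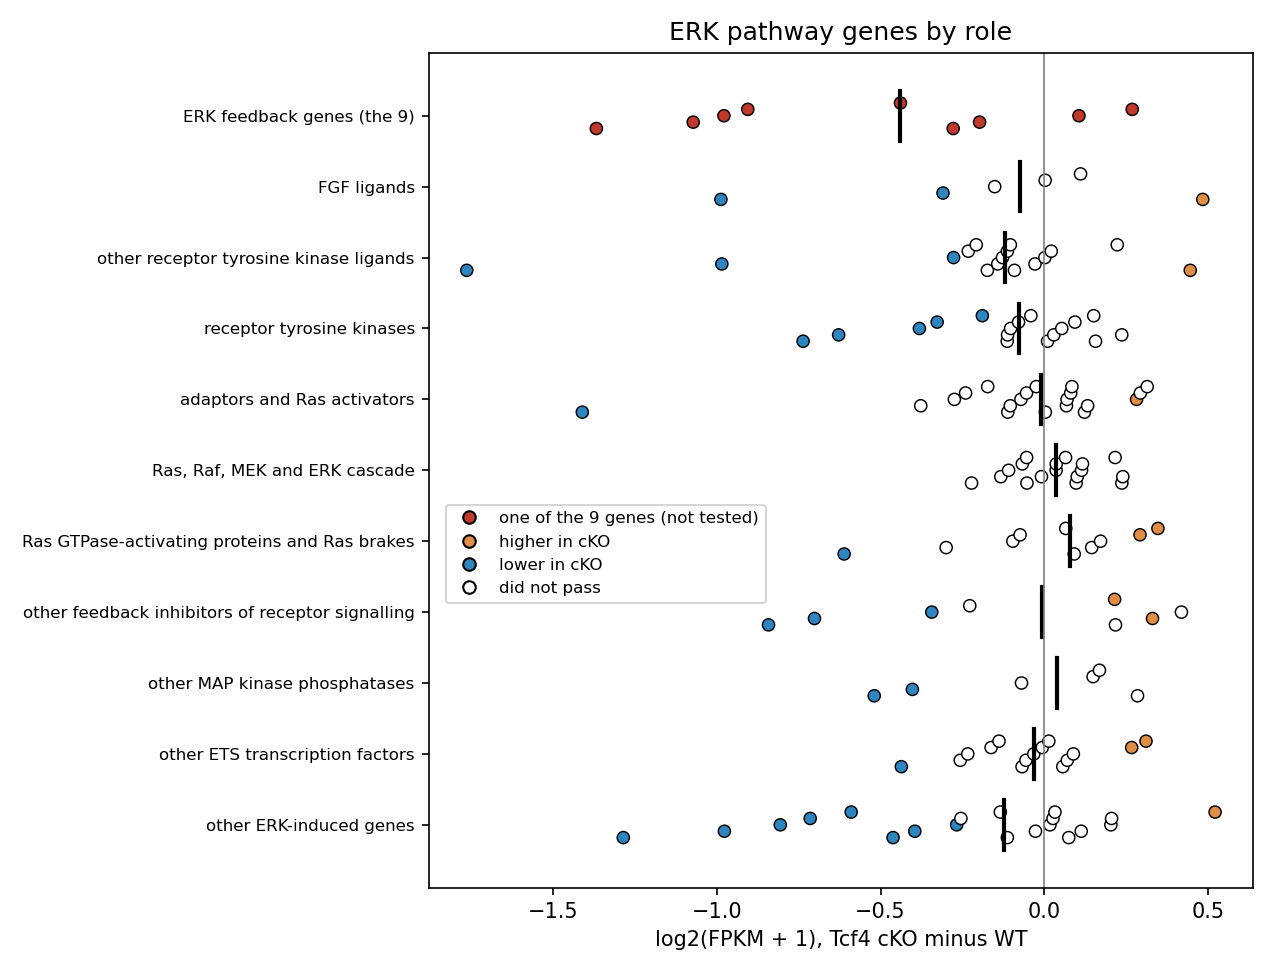
Log2 difference, Tcf4 cKO minus WT on the log2(FPKM + 1) scale, for the 9 genes (red) and for each measured gene of the 10 pathway lists; blue points were lower and orange points higher at a limma adjusted p under 0.05, white points did not pass, and black bars are medians. The cascade list is all white, and blue points far to the left (Ntf3 at −1.76, Rasgrf2 at −1.41, Ier5 at −1.29) stand in lists whose median is near 0.

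The genes whose profile over the 6 libraries was closest to each of the 9, by root mean square difference of centred log2(FPKM + 1) values among 11336 genes, included Rprm for Dusp6 (0.0787 log2 units; 36.9 ± 1.76 FPKM in cKO and 78.7 ± 2.58 FPKM in WT). For Spry2 it was Nxph3 (0.0832), which was at 16.1 ± 2.46 FPKM in cKO and 32.6 ± 2.71 FPKM in WT. For Etv5 it was Ephx4 (0.0744) and for Dusp5 it was Wnt7b (0.113). The closest were Gabrg1 for Dusp4 (0.0365), Ptrf for Spry1 (0.0226), Mtrr for Spred1 (0.0109), Ptpro for Spred2 (0.0432) and Zfp369 for Etv1 (0.0243). With 6 libraries of 2 genotypes, a small difference mainly reflects a like gap between the genotypes.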

How the data were processed

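RNA of 6 neocortex samples, 3 Tcf4 cKO and 3 WT, was analysed from 1 table of FPKM values that the authors computed and deposited. The tools in the submitters' processing notes were bcl2fastq 1.8.4, STAR 2.5.4b, mm10, featureCounts 1.6.1, R 3.4.1 and DESeq2 1.22.1; annotation, strand setting and any filter on low values are not given in the sources that were used here. Groups and replicate numbers came from the titles, which carry 6 animal codes. Blank lines (139) were left out. Loci and exon lengths are from GENCODE M21 (mm10), matched by gene ID for 15661 of 15703 genes. Library sizes were set so that values of genes with at most 50 reads and exons under 3000 bases became whole reads; at this size 94.8% to 96% of them fell no more than 0.1 from a whole number (18.3% to 21.8% at a size set wrong on purpose). Summed reads exceeded each chosen size, so reads are approximate and intervals for them were not computed. FPKM is rescaled by exon length, so a different annotation would change levels but hardly the differences between genotypes.

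limma 3.58.1 (R 4.3.3; mean-variance trend, robust) was fitted to log2(FPKM + 1) with no term but genotype, and p-values were adjusted over all 15703 genes by the Benjamini-Hochberg method, threshold 0.05. The written design allowed for counts; a count model does not suit FPKM, so limma voom on recovered reads took its place. The fit was first tested on simulated data. Tables were made with Python 3.11.15, pandas 2.3.3 and numpy 2.4.6. The 9 genes and all lists were chosen with earlier results of these data known. Named are the 9 genes, Tcf4, every called gene of a list with up to 5 calls in a direction, otherwise the 4 with the smallest p, and where a list had no call the 2 with the highest level, plus the closest profile for each of the 9 genes. Others (Dusp1, Dusp8, Fgfr2, Fgfr3, Egfr, Il17rd, Ccnd1 and the members of marker lists) were added after their values were seen. Not every gene picked by this rule is reported here.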

Additional observations from a re-analysis of the deposited data

How the results depend on the processing

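The direction of the difference was kept for all 9 genes under the 11 alternatives, and 97 of 99 values moved by less than the spread between replicates. The other 2 were for Dusp5, at −3.04 with a pseudocount of 0.1 and −3.64 with voom on recovered reads (chosen after seeing the data), which add less to low values. Much of this agreement was fixed in advance. The filter on mean FPKM and the block for replicate number cannot change these differences, and median-ratio scaling hardly can. Leaving out 1 library cannot reverse a gene whose groups do not overlap, which holds for all of the 9 but Spred1. Leaving out 1 library gave 544 to 1572 genes higher and 830 to 1517 lower. Among pathway lists, as ranges of calls higher and then lower without 1 library, FGF ligands had 0 to 1 and 1 to 2, other ligands 0 to 1 and 2 to 3, receptors 0 to 1 and 2 to 4, adaptors 0 to 2 and 1 to 2, the cascade 0 to 1 and 0 to 1, Ras brakes 1 to 2 and 1 to 1, feedback inhibitors 0 to 2 and 2 to 4, phosphatases 0 to 1 and 0 to 2, ETS factors 0 to 1 and 1 to 1, and ERK-induced genes 1 to 2 and 4 to 8. A filter at a mean of 1 FPKM left 1 FGF ligand, 2 other ligands, 3 receptors, 1 phosphatase and 7 ERK-induced genes called lower. Fgf5, Igf1, Fgfr4, Alk, Dusp10 and Arc had means under 1 FPKM and were no longer tested. With voom on recovered reads, 1685 genes were higher and 1366 lower, against 1134 and 1349 in the main fit. Receptors then had 1 higher, adaptors 3 higher and 2 lower, and the cascade 1 higher and 1 lower. Phosphatases had 1 higher, feedback inhibitors 3 higher, ETS factors 2 lower, and ERK-induced genes 2 higher and 7 lower. The cause of these changes was not tested. Replicate numbers pair no samples by the labels, and deviations of same-numbered libraries correlated at −0.0427, 0.109 and −0.0377 over 13071 genes. With replicate number as a block, 1274 genes were higher and 1541 lower, with 2 adaptors, 1 phosphatase, 1 feedback inhibitor and 1 ETS factor higher, and 5 of the 9 genes, 4 receptors, 2 other ligands and 7 ERK-induced genes lower. Under the block Igf1 (limma adjusted p = 0.0748), Fgfr4 (0.0644), Ier2 (0.0667), Spry3 (0.064), Cblb (0.0548) and Ets2 (0.0653) no longer passed. Tcf4 was called under every alternative run. Median-ratio size factors were 1.003 in all 6 libraries, so that scaling changed little. The cKO level of Dusp5 is limited by its 8 to 9 reads per library.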
